A study of Mus musculus with 11 samples.

Results

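The 9 genes Neurog1, Neurog2, Neurog3, Neurod1, Neurod2, Olig1, Olig2, Olig3 and Atoh1 encode neural transcription factors of the basic helix-loop-helix (bHLH) family. They were chosen by name, out of 21627 protein-coding genes on chromosomes 1 to 19 and X, and each was measured over its gene body plus 10 kb on both sides, here called the gene window. All samples came from 1 line, mouse E14 embryonic stem cells of 129/Ola background, grown without any further treatment in serum with leukemia inhibitory factor. Histone marks were mapped by CUT&Tag, in which an antibody brings a transposase to chromatin carrying the mark. In the bisulfite version (CUT&Tag-BS) the fragments are then converted, so that the methylation of each CpG is read on the marked fragments. Bisulfite libraries for H3K27me3 used 4000, 20000, 100000 or 250000 cells. Those for H3K4me1 and H3K9me3 used 250000 cells and came in a run 1 of 35 bp reads and a run 2 of 75 bp reads. Each mark also had 1 control from 250000 cells prepared without bisulfite.

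bHLH factors of this class pair with broadly expressed E proteins and bind the E-box, CANNTG. Neurogenins and Atoh1 start neuronal programmes in progenitors, the NeuroD factors act later in differentiating neurons, and the Olig factors pattern the ventral and dorsal neural tube and, for Olig1 and Olig2, the oligodendrocyte lineage. In embryonic stem cells such genes are typically silent developmental regulators with CpG-rich promoters, a class known to be held by Polycomb repressive complex 2, which writes H3K27me3. H3K4me1 is the mark of enhancers and promoter flanks, and H3K9me3 that of heterochromatin.

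The H3K27me3 libraries held 378056, 5019897, 24468360 and 37177077 CpG calls in order of cell number, and the H3K4me1 runs 4917718 and 9690770. CpGs with 1 call in run 1 and 1 in run 2 were compared over the genome. Both calls gave the same state at 97.6% of 558920 such CpGs for H3K4me1 and 95.9% of 482946 for H3K9me3. In member windows they did so at 99.3% of 272 and 96.7% of 61. Over the genome, 2 calls within run 2 gave the same state at 77.4% of CpGs for H3K4me1 and 83.5% for H3K9me3. The runs of a mark were therefore counted as 1 library, whose value is the mean of the runs. Each mark and cell number thus rests on 1 library, no test across samples applies, and Wilson 95% intervals cover counting error only. RNA was not measured. As a check of the cells, windows of all 10 pluripotent stem cell markers carried an H3K4me1 peak in both runs, and 1 of the 10, Esrrb, carried an H3K27me3 peak from 250000 cells. Of 8 fibroblast markers, 5 carried such an H3K27me3 peak, among them Twist2, which is also one of the other bHLH genes below, and 5 carried an H3K4me1 peak in both runs. The shares over all gene windows were 42.3% for H3K27me3 and 44.3% for H3K4me1.

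The gene windows spanned 21.7 to 24.2 kb and shared no base with each other. They held a median of 18.6 CpGs per kb, from 13.0 at Neurod1 to 27.8 at Neurod2, against 11.3 over all genes and 9.60 over the 4850 genes up to 5 kb long. Within 1 kb of the start the median was 52.5 CpGs per kb, against 31.5 over all genes. Promoters of 8 members were found in the RefSeq promoter set (GRCm38.p6), from 250 bases before to 50 after the annotated start. For Olig1 the gene end with more CpGs was taken as the start. The 4 promoters shown mark the range of methylation found in the H3K27me3 library from 250000 cells, with every CpG in capitals.
Olig2 promoter, chr16:91225300-91225599, plus strand: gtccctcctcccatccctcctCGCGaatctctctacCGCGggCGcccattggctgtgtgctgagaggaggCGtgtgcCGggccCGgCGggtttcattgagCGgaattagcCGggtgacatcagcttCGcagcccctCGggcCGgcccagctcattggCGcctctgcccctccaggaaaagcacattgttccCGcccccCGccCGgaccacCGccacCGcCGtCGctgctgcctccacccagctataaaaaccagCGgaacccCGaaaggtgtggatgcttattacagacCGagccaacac
Neurog1 promoter, chr13:56252131-56252430, minus strand: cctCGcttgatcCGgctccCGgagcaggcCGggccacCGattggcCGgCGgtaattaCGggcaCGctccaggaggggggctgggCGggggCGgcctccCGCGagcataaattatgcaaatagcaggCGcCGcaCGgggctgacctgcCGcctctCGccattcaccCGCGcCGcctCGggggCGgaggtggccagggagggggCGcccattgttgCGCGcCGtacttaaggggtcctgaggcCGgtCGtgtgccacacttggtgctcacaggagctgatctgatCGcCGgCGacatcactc
Neurod2 promoter, chr11:98329596-98329895, minus strand: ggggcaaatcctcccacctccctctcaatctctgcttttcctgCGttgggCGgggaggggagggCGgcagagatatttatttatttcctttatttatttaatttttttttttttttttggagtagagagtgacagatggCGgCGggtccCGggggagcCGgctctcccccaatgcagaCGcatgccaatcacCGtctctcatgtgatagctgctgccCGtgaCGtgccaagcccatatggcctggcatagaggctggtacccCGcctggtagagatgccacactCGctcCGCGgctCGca
Olig3 promoter, chr10:19356289-19356588, plus strand: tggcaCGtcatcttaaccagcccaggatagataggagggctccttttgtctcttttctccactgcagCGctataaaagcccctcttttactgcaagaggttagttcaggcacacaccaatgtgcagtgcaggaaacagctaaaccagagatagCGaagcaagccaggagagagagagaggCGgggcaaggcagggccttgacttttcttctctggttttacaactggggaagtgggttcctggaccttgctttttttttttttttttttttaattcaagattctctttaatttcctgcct
The Olig2 sequence has 25 CpGs, at which 5 of 2138 calls were methylated (0.234%, interval 0.0999 to 0.546%). The Neurog1 sequence has 32 CpGs, with 16 of 3484 calls methylated (0.459%, 0.283 to 0.745%). In neither did any CpG reach a level of 10%. The Neurod2 sequence, with 16 CpGs and a long run of T, had 60 of 395 calls methylated (15.2%, 11.99 to 19.1%), and 9 of its 14 CpGs with at least 10 calls reached 10%. The Olig3 sequence has 4 CpGs, all of which reached 10%, with 31 of 160 calls methylated (19.4%, 14.0 to 26.2%).

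The other promoters were closer to Olig2 and Neurog1 than to Neurod2 and Olig3. In the same 300 bases, Neurog2 (10 CpGs) had 0.329% of 607 calls methylated, Neurog3 (19 CpGs) 0.378% of 794, Atoh1 (20 CpGs) 0.488% of 1024 and Neurod1 (26 CpGs) 1.82% of 1371 (1.24 to 2.68%, above the intervals of Olig2 and Neurog1), with 1 CpG at 11.1%. The median of the 8 promoters was 19.5 CpGs, against 14 over 17273 first promoters of protein-coding genes. The E-box CANNTG, which reads alike on both strands, was present in 62.5% of the 8 and 68.8% of all. The forms CAGATG and CAGCTG, both strands searched, were each present in 12.5% of the 8, against 14.6% and 15.3%. CGCG was present in 75% and 50.0%.

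All 9 gene windows carried H3K27me3, and the mark lay over the start of every member. In the library from 250000 cells, 9 of 9 windows shared at least 1 bp with a deposited peak, as did 42.3% of all gene windows and 27.7% of those of genes up to 5 kb long. The start lay under a peak in 9 of 9, against 24.9% of all genes. Peaks covered at least 50% of the window in 7 of 9 (background 5.06%, or 7.84% of genes up to 5 kb) and the whole window in 5 of 9 (0.513%). The control without bisulfite gave 9 of 9 windows (46.7%) and 9 of 9 starts (26.9%).

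The domains fell into a wide and a narrow set. Neurog1 on chromosome 13 (56250478 to 56252180, minus strand), which drives sensory neuron formation, lay in a peak of 71.1 kb, which placed it among the 22 widest of 13914 peaks. Neurod2 on chromosome 11 (98325415 to 98329645, minus), a factor of maturing cortical neurons, lay in a peak of 50.0 kb. Neurog2 on chromosome 3 (127632733 to 127635636, plus), a proneural factor of cortex and spinal cord, had 30.3 kb. Olig2 (chromosome 16, 91225550 to 91228677, plus), the motor neuron and oligodendrocyte factor, and its neighbour Olig1 (91269769 to 91271939) lay in separate peaks of 27.1 and 26.6 kb. Atoh1 on chromosome 6 (64729125 to 64731245, plus), needed for cerebellar granule neurons and inner ear hair cells, had 23.0 kb. The narrow set comprised Olig3 (chromosome 10, 19356539 to 19358604, plus), a dorsal neural tube factor, with 13.7 kb, Neurog3 (chromosome 10, 62133090 to 62134763, plus), the pancreatic endocrine factor, with 10.3 kb, and Neurod1 (chromosome 2, 79452637 to 79456636, minus), which acts in neurons and pancreatic endocrine cells, with 10.01 kb. All 9 peaks were at least 10 kb wide, and a peak of that width lay over the start of 8.8% of all genes. The median width in the list was 3206 bp.

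**Figure D1:**
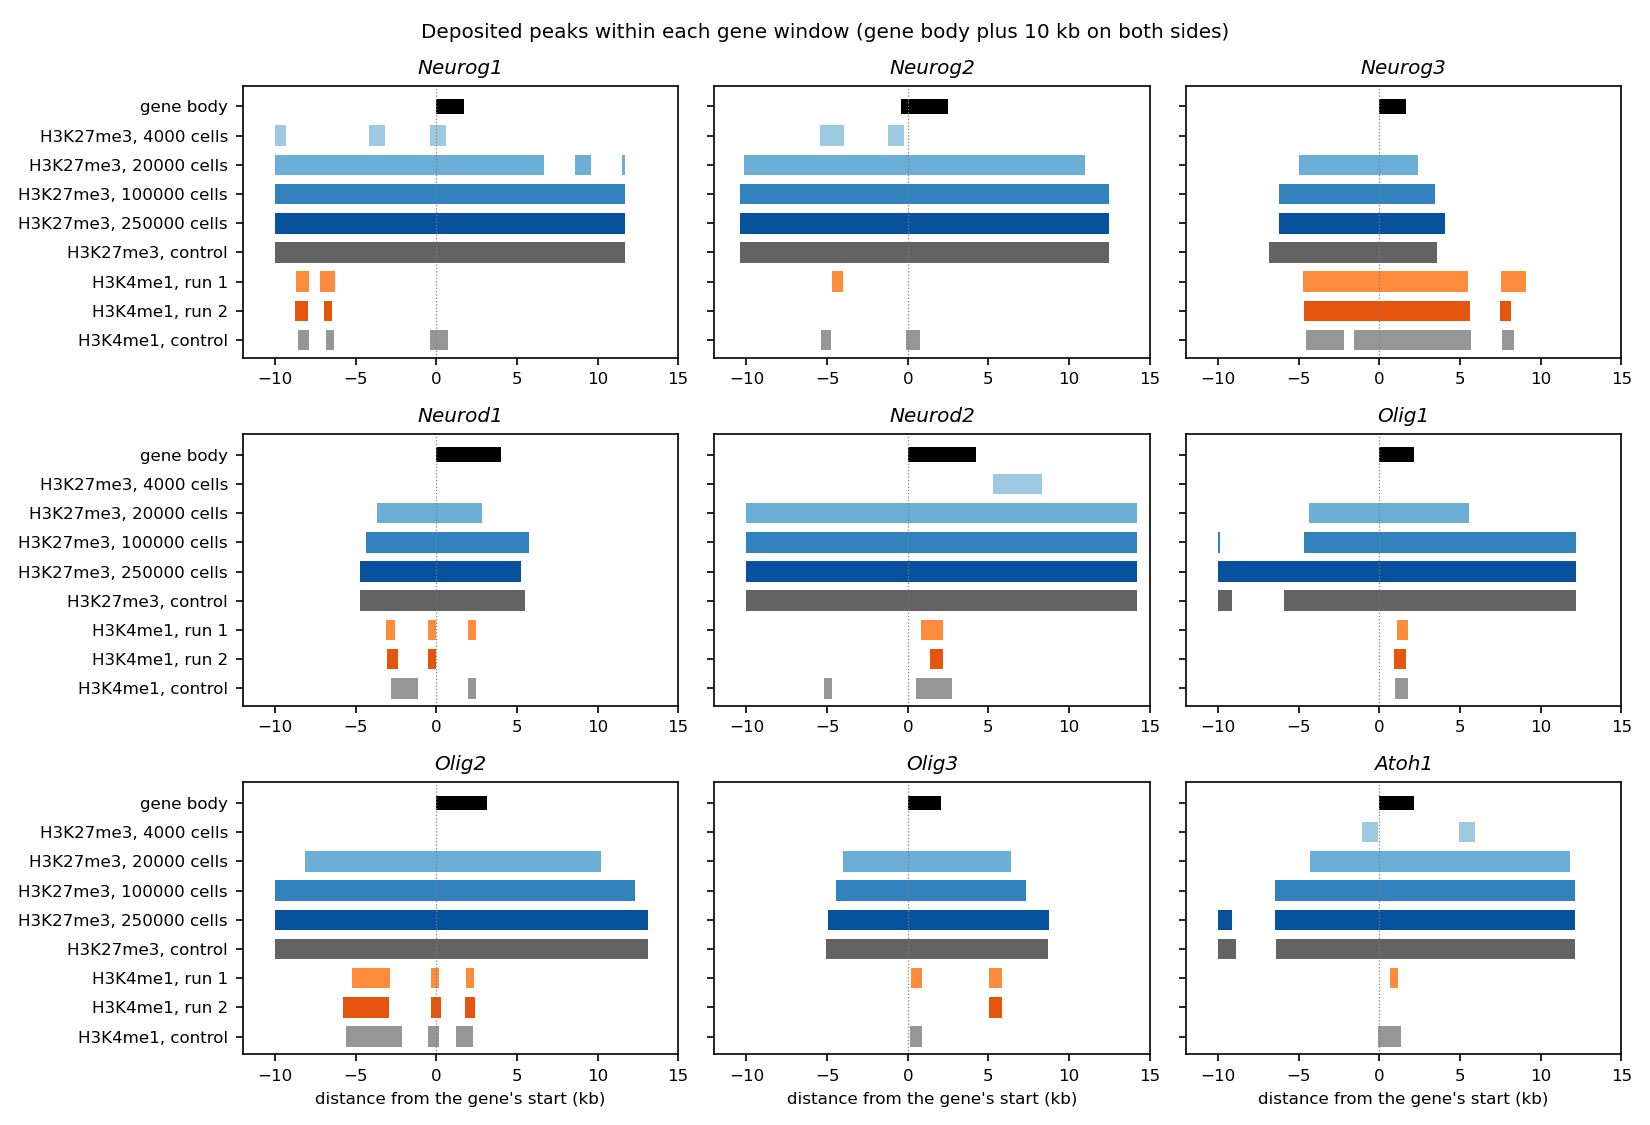
Deposited peaks of H3K27me3 and H3K4me1 (rows) within each gene window, by distance from the gene's start in kb; bars are peaks clipped to the window, black bars are gene bodies. H3K27me3 bars from 250000 cells fill the whole window of 5 genes and stop short on both sides at Olig3, Neurog3 and Neurod1, while H3K4me1 bars are short except at Neurog3.

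Peak width and call density ranked the genes in different orders. Calls per CpG of the window, as a fold over the library's genome mean, were highest at Neurog2 (47.4 with 250000 cells), then 40.3 at Neurog1, 32.6 at Neurod2, 29.2 at Atoh1, 27.1 at Olig2, 18.2 at Olig1, 17.0 at Olig3, 15.5 at Neurog3 and 13.0 at Neurod1. The median over all genes was 0.263. Olig1 and Olig2, with peaks of nearly the same width in this list, differed in this measure, and Olig1 lay near the narrow set. Their peaks over the start measured 19.2 and 28.3 kb in the control and 17.0 and 24.0 kb from 100000 cells.

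Recovery with fewer cells was tracked next, by the share of bases under 250000-cell peaks in a window that were also under peaks of a smaller library. Cell number and depth fell together in these libraries. From 100000 cells 9 of 9 windows kept a peak (background 40.3%), and from 20000 cells 9 of 9 did (29.2%), with the start covered in 9 of 9 in both (23.7% and 17.4%). From 4000 cells 4 of 9 windows had a peak, against 2.47% of all genes, 1.69% of genes up to 5 kb and 5.8% of windows with a 250000-cell peak. The 4 were Neurog1, Neurog2, Neurod2 and Atoh1, the genes with the highest calls per CpG at 250000 cells. Summed over members, 94.1% of bases were recovered from 100000 cells, 78.7% from 20000 and 6.10% from 4000, against 82.8%, 41.5% and 0.780% over all gene windows. The control recovered 97.7%, and 97.1% over all genes.

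Single genes spread widely at 20000 cells. Neurod2 was recovered in full and Neurog2 to 92.3%, followed by Atoh1 (83.2%), Neurog1 (82.3%), Olig2 (79.4%), Olig3 (76.1%), Neurog3 (71.3%), Neurod1 (64.8%) and Olig1 (44.9%). Olig1 was also lowest from 100000 cells, at 76.4%, with Olig3 next at 85.5% and the other 7 genes between 93.6 and 100%. From 100000 cells the bases lost at Olig1 lay in a gap between 2 peaks, from 9.904 to 4.668 kb before the start. From 20000 cells 1 peak was left, from 4.362 kb before to 5.589 kb after the start. The peak over the start measured 26.6 kb from 250000 cells, 17.0 kb from 100000 and 9.95 kb from 20000. In the control without bisulfite, 85.4% of the 250000-cell bases at Olig1 were under peaks, the lowest of the 9.

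**Figure D2:**
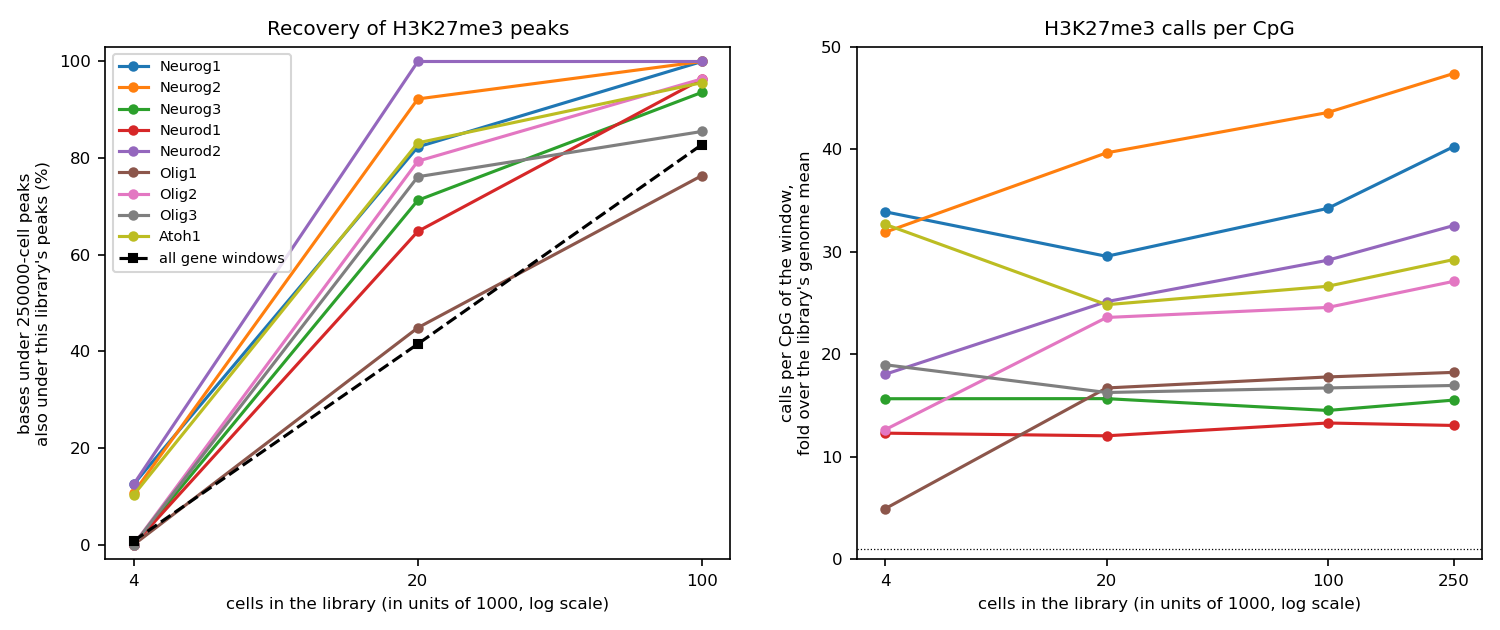
Left, share of the bases under 250000-cell H3K27me3 peaks that were recovered by each smaller library (y, percent) against cell number (x, in units of 1000 cells, log scale), 1 line per gene and a dashed line for all gene windows; right, calls per CpG as a fold over the library's genome mean. At 20000 cells the genes run from 44.9% at Olig1 to 100% at Neurod2, and on the right the line of Olig1 rises from 4.93 to 18.2.

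At 4000 cells the peaks marked single pieces of the domains. Neurog1 had 3 such pieces, 1 of them over the start (from 0.403 kb before to 0.597 kb after it), the only member start under a 4000-cell peak (1 of 9, background 0.689%). Atoh1 had 2, ending 0.09 kb before the start and spanning 4.911 to 5.911 kb after it. Neurog2 had 2 upstream pieces, and Neurod2 had 1 of 3.04 kb, from 5.284 to 8.319 kb after its start. The fold in calls per CpG at Neurog3 was 15.7, 15.7, 14.5 and 15.5 in order of cell number, and at Neurod1 it was 12.3, 12.04, 13.3 and 13.05, although neither had a 4000-cell peak. At 4000 cells 4 genes stood below all their larger libraries: Olig1 (4.93 against at least 16.7), Olig2 (12.6 against 23.6), Neurod2 (18.1 against 25.1) and Neurog2 (31.9 against 39.7). Olig3 (18.97) and Atoh1 (32.7) stood above theirs, which reached 16.95 and 29.2.

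Weighted by calls, DNA methylation on the H3K27me3 fragments of all 9 windows lay below the median gene window. A window level is the methylated share of all calls in the window. With 250000 cells it was lowest at Atoh1 (10.6%, 10.2 to 11.1%, 19389 calls), then Neurog2 (11.4%, 48267 calls), Neurog1 (12.1%, 31464), Neurog3 (15.0%, 9374), Neurod2 (16.0%, 38197), Olig2 (16.7%, 28928), Neurod1 (17.8%, 7107) and Olig1 (19.1%, 13103). Olig3 stood apart at 31.9% (31.0 to 32.8%, 10207 calls). In this order the intervals of neighbours from Neurog3 to Olig1 overlapped, while those of Atoh1, Neurog2, Neurog1 and Olig3 were apart from their neighbours. The median of the 9 was 16.0%, against 46.01% over 19214 gene windows with at least 20 calls and 47.1% over those of genes up to 5 kb. Of all gene windows only 42.3% held a 250000-cell peak, so this sets windows with peaks beside many without. Under such peaks the gap was smaller. There the median was 15.9% over the 4 members with at least 20 calls inside and outside peaks, against 25.2% over 8805 such gene windows. Averaging single CpG levels, which removes the weight of the deeply read CpGs, moved the median of the 9 to 27.7% and changed the order. Neurog2 and Neurog1 were then lowest, both at 19.2%, followed by Neurod2 (19.6%), Olig2 (21.4%), Neurog3 (27.7%), Atoh1 (28.9%), Neurod1 (39.0%), Olig1 (47.2%) and Olig3 (54.4%). Olig3 was highest under both weightings. For the mean of single CpG levels, a median over all genes is not given.

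Levels at CpGs shared between cell numbers were close down to 20000 cells. At CpGs called both with 100000 and 250000 cells, the difference per gene ran from -1.60 points (Olig3) to 0.42 (Olig1), and with 20000 cells from -1.94 (Neurod1) to 1.62 (Olig1). In no gene did the intervals separate. The median absolute difference was 0.42 and 0.77 points, against 2.52 and 4.06 over 15247 and 10894 gene windows. All gene windows held a median of 255 calls with 250000 cells, and the members 19389. With 4000 cells the intervals separated at 5 of the 9 genes, each higher with 4000 cells. The share of all gene windows with separated intervals was not computed. Over 4644 gene windows the median difference was also towards higher levels with 4000 cells, at 5.62 points, against 8.04 for the members. A difference of at least 20 points was seen at 1 of 9 members and in 10.4% of those windows. Calls were pooled over the shared CpGs, so each library weighted them by its own depth. The largest gap was at Olig1, where 44.4% of 36 calls (29.5 to 60.4%) were methylated against 13.7% of 1720 with 250000 cells. Neurod1 had 25.8% of 62 calls against 7.71%, and Neurog1, with 269 calls, had 8.18% against 9.18%.

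**Figure D3:**
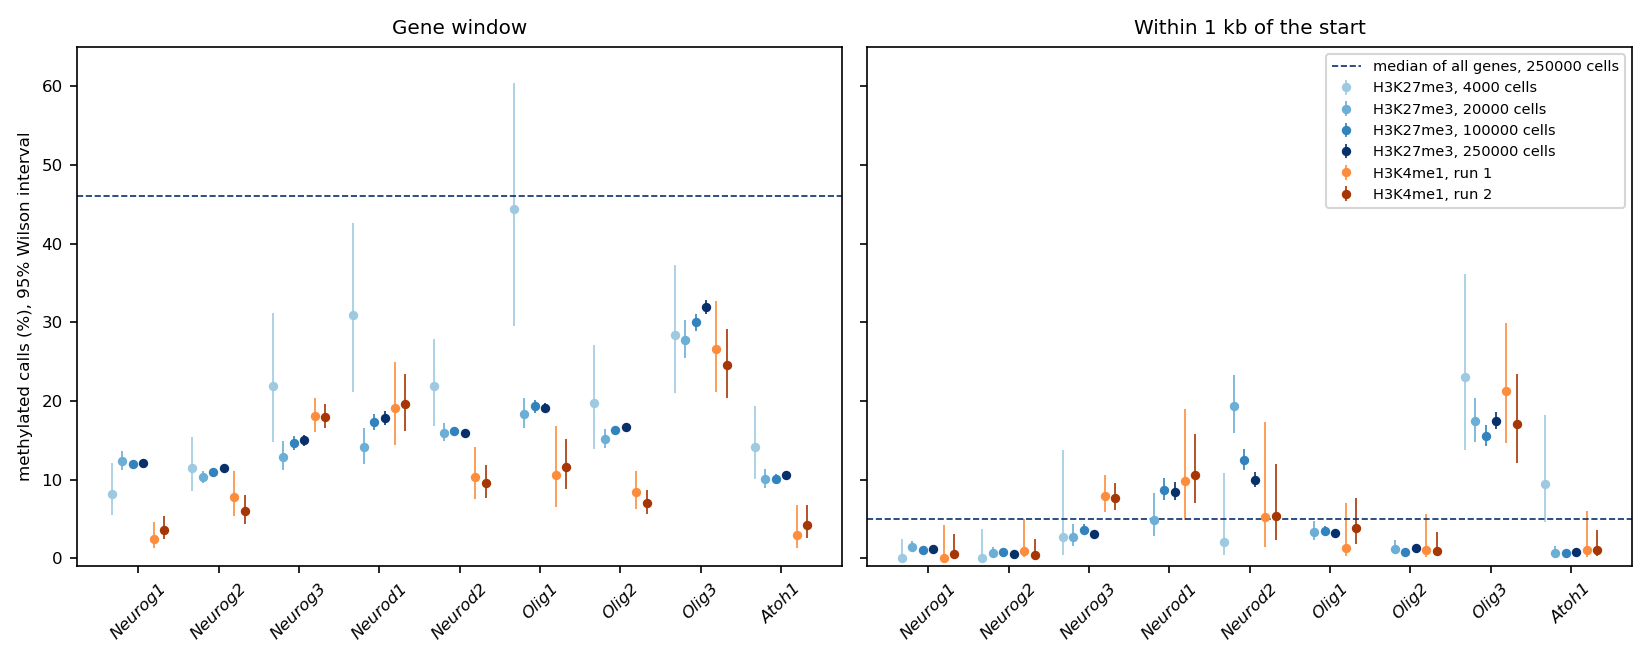
Methylated share of calls (y, percent, with 95% Wilson intervals) for each gene, in the whole window (left) and within 1 kb of the start (right), by library; points need at least 20 calls, and the dashed line is the median of all genes at 250000 cells (46.01% and 5.05%). Olig3 is highest at 250000 cells in both panels, at 31.9% and 17.4%, and the point at 44.4% is Olig1 with 4000 cells.

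Near the start methylation was low at most members, as it was at many of the measured genes. Within 1 kb of the start, levels with 250000 cells were 0.556% at Neurog2 (11520 calls), 0.858% at Atoh1 (6989), 1.21% at Neurog1 (14697), 1.37% at Olig2 (5481), 3.03% at Neurog3 (4450) and 3.24% at Olig1 (7123). Neurod1 (8.49%, 2144 calls), Neurod2 (9.96%, 3886) and Olig3 (17.4%, 4685) were higher. Thus 6 of 9 were under 5% and 8 of 9 under 10%, as were 49.5% and 64.8% of 12999 genes with at least 20 calls, and the median of 3.03% stood beside 5.05%. As a mean of single CpG levels Neurod1 was at 20.2%, Neurod2 at 12.2% and Olig1 at 5.71%, which left 5 genes under 5% and 6 under 10%. Shares over all genes are not given for this weighting. At Neurog2 and Atoh1 all CpGs near the start with at least 10 calls, 163 and 111, were under 10%. At Olig3 39.7% of such CpGs were. Neurod2 was the gene whose start varied most between libraries, with 2.08% of 48 calls at 4000 cells, 19.4% of 449 at 20000, 12.5% of 2284 at 100000 and 9.96% at 250000.

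Along the windows, unmethylated stretches alternated with methylated ones under the same H3K27me3 peak. Of 153 bins of 1 kb that lay wholly under 250000-cell peaks and had at least 20 calls, 40 had a level under 10% and 70 a level of at least 50%. The low bins held a median of 47 CpGs and a fold of 35.4 in calls per CpG, and the high bins 9 CpGs and a fold of 9.69. Bins of 1 window share a domain and are given as a description.

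At Atoh1 low and high bins lay close together. From 2 kb before to 2 kb after its start the bins ran from 0.766 to 9.19%, and the 3 bins from 5 to 2 kb before the start had from 89.9 to 92.6% methylated. A second unmethylated bin lay 5 to 6 kb after the start, beyond the gene's end, with 57 CpGs and 0.924% of 5845 calls methylated. It had the highest calls per CpG of the window (fold 58.9) and held most of the 4000-cell peak described above. An Atoh1 enhancer active in neural tissue is known 3' of the gene.

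Neurog1 and Neurog2 had more than 1 such stretch as well. At Neurog1 the bin from 7 to 6 kb before the start had 0.425% of 4237 calls methylated, near the 0.855% of 9243 calls in the first kb of the gene, with 38.9 to 43.0% from 4 to 1 kb before the start. At Neurog2 the bin from 8 to 7 kb before the start had 0.847% of 3660 calls. On the other side of Neurog2, the bin from 6 to 7 kb had the highest fold of any bin, 113, at a level of 18.8% over 7065 calls.

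Neurod2 and the Olig genes differed in where the methylated part began. At Neurod2 the low stretch lay on the gene side of the start (3.54, 1.09 and 1.67% in the first 3 bins), whereas the bin just before the start had 44.2% of 613 calls and that from 4 to 3 kb before had 85.5% of 524. The whole Neurod2 window lay under peaks in 4 of the 5 H3K27me3 lists, the 4000-cell list being the exception. At Olig1 15 of 18 bins under the peak were at least 50% methylated and 2 were under 10%, whereas at Olig2 11 of 22 and 7 were. Olig3 was the only member with no bin under 10%. Its lowest was the first kb after the start, with 16.5% of 4275 calls, and of its window CpGs with at least 10 calls 20.2% were under 10% and 28.1% at 80% or more. In Neurog1 the same shares were 70.8% and 5.65%.

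**Figure D4:**
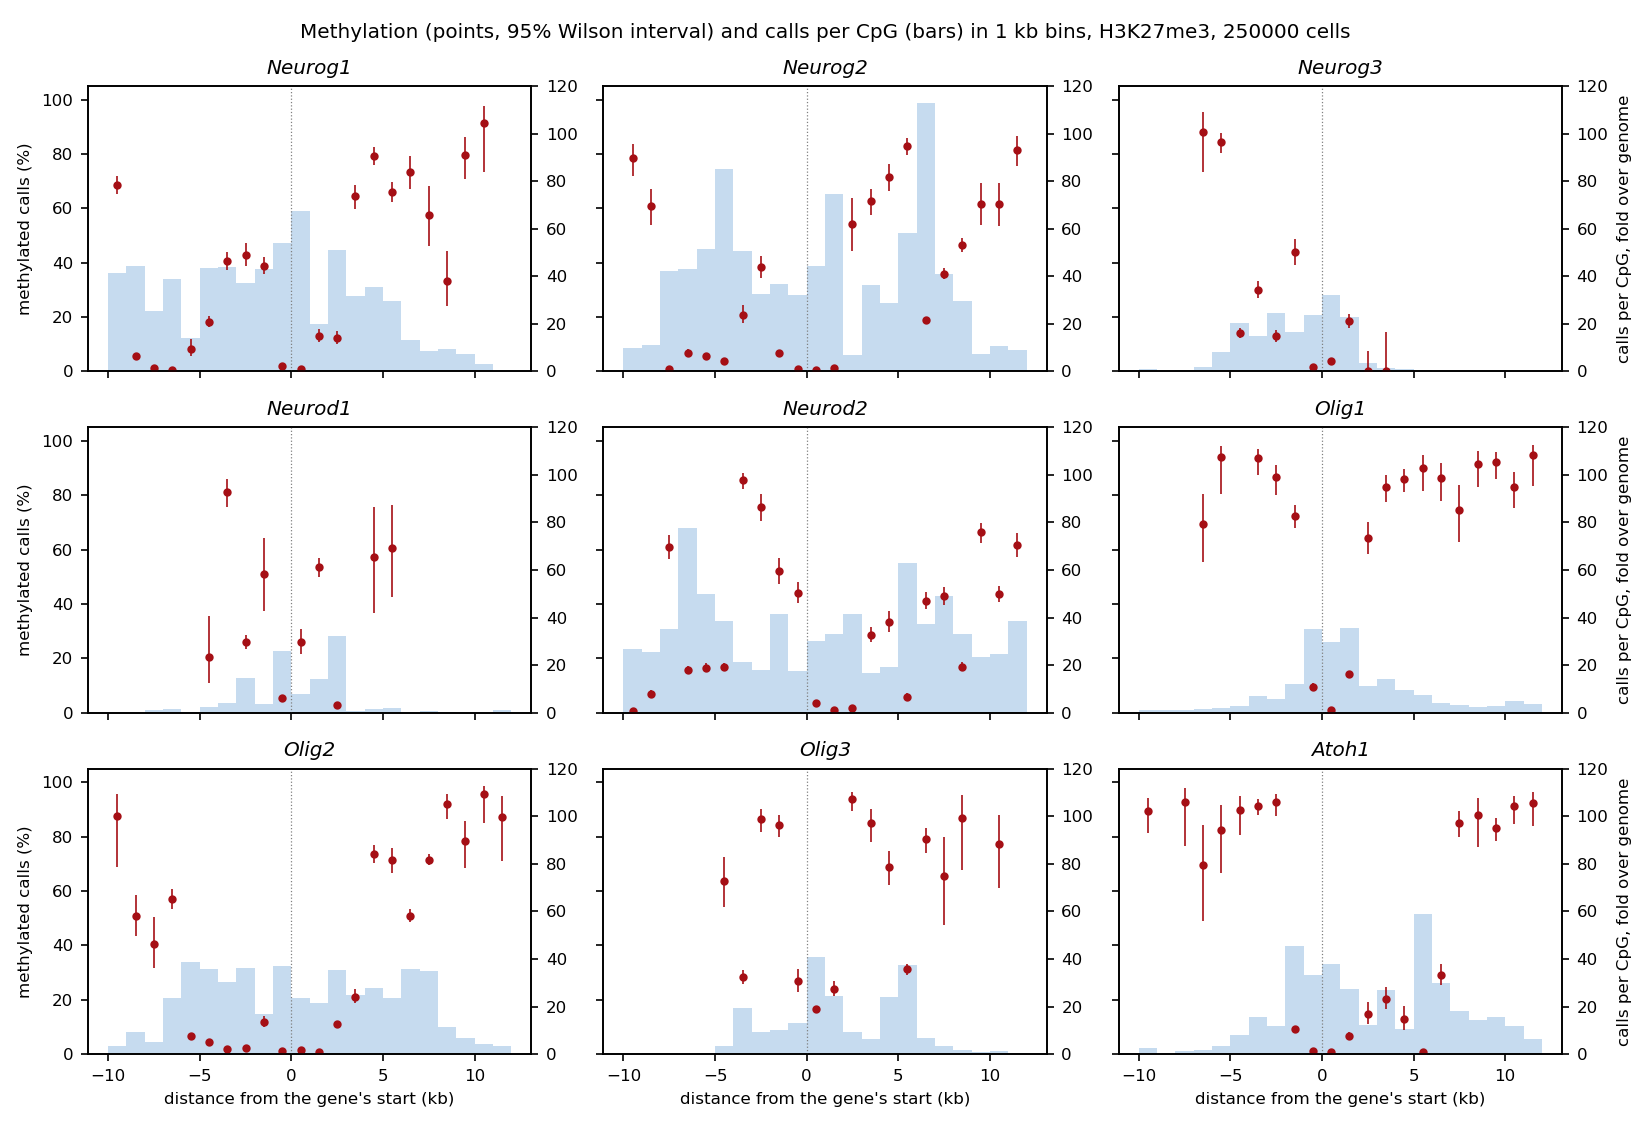
Methylated share of calls (points, left axis, percent, with 95% Wilson intervals, bins with at least 20 calls) and calls per CpG as a fold over the genome mean (bars, right axis) in 1 kb bins by distance from the start, H3K27me3 with 250000 cells. The highest point under the 250000-cell peaks lies above 80% at every gene, from 81.3% at Neurod1 to 95.6% at Olig2, while at Olig3 no point falls under 16.5%.

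Where a window reached beyond its peaks, calls outside were mostly methylated in the 250000-cell H3K27me3 library. Of the 4 members with at least 20 calls on both sides, Atoh1 had 10.5% inside and 93.8% of 32 calls outside, Neurod1 17.3% and 79.0% of 62, Neurog3 14.6% and 70.4% of 71, and Olig3 31.5% and 80.5% of 87. The inside and outside intervals were apart in each. On H3K4me1 fragments of the Neurog3 window the gap was smaller, with 17.3 and 17.2% methylated inside the same H3K27me3 peaks and 27.4% of 106 calls (run 1) and 25.4% of 224 (run 2) outside. The median difference was 58.8 points, against 42.3 over 8805 gene windows.

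H3K4me1 peaks covered a small part of each window, with 1 exception. The median share covered was 6.26% in run 1 and 3.63% in run 2, against 0 over all gene windows in both. A peak was found in both runs in 7 of 9 windows (background 44.3%), in run 1 in 9 of 9 (47.2%), in run 2 in 7 of 9 (45.3%) and in the control in 9 of 9 (47.2%). Neurog2 and Atoh1 had a peak in run 1 but not in run 2. Neurog3 had a peak of 10.2 kb in run 1 and 10.3 kb in run 2 over its start, and peaks covered 54.6 and 50.4% of its window. In the other 8 windows peaks covered at most 14.6% in run 1 and 18.0% in run 2, both at Olig2. Starts under a peak in both runs were those of Neurog3, Neurod1 and Olig2 (3 of 9, background 8.17%). At Neurod1 these peaks ended only 8 and 12 bp after the start. The control named a different set, with peaks over the starts of Neurog1, Neurog2, Neurog3, Olig2 and Atoh1 but not of Neurod1. For the control, the share of all starts under a peak is not given. The fold in calls per CpG was 15.4 and 15.1 at Neurog3, the same size as its H3K27me3 fold of 15.5, and between 1.48 and 3.996 at the others. Over all genes the median fold was 0.627 in run 1 and 0.637 in run 2.

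At Neurog1 and Olig2, small H3K4me1 peaks lay on low-methylation bins away from the start. Olig2 also had a peak over its start in both runs and in the control. At Neurog1 the start lay under a peak only in the control, from 0.36 kb before to 0.728 kb after it. At Neurog1 each run had 2 peaks, which in run 2 lay between 8.744 and 6.471 kb before the start, over bins from 0.425 to 5.57%. At Olig2 a peak spanned 5.783 to 2.904 kb before the start in run 2, over bins between 1.76 and 6.57%. Olig3, which had no bin under 10%, had a peak in both runs, in run 2 from 5.042 to 5.841 kb after the start. It lay in the bin whose H3K27me3 level was 31.1%, the lowest beyond 2 kb downstream. The H3K4me1 control had no peak there, and its only peak in the window lay from 0.119 to 0.906 kb after the start.

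Over calls pooled at the same CpGs, the difference between the marks ran from -5.997 points at Neurod1 to 1.31 at Olig2. Each library weighted these CpGs by its own depth, and the difference was not computed per CpG. At Neurod1, for example, 4727 H3K27me3 calls stood beside 214 H3K4me1 calls of run 1. At CpGs called in the 250000-cell H3K27me3 library and in H3K4me1, the H3K27me3 level minus the mean of the H3K4me1 runs was -5.997 points at Neurod1, -4.53 at Neurog3, -4.36 at Olig1, -2.53 at Neurod2, -1.53 at Atoh1, -1.38 at Olig3, -0.42 at Neurog2, 0.56 at Neurog1 and 1.31 at Olig2. SDs between runs were 0.14 to 2.18 points. No member differed by 20 points in either direction (background 3.09% with H3K27me3 higher and 3.43% with H3K4me1 higher), and the median was -1.53 against -1.77 over 12668 genes. At Neurog3 the levels were 12.2 and 12.8% for H3K27me3 beside 17.0% (15.0 to 19.2%) in run 1 and 17.0% (15.6 to 18.6%) in run 2. At Neurod1 they were 13.6 and 13.0% beside 19.2% (14.5 to 25.0%) and 19.4% (16.0 to 23.3%). In both genes, and at Olig1, the H3K27me3 level lay under the H3K4me1 interval in each run, while at Neurog1, Neurog2, Olig3 and Atoh1 it lay within it in each. The share of all genes with a level under the interval is not given. The 2 runs count as 1 library, so they are not separate support. Over all CpGs of the window rather than shared ones, the median difference was 6.35 points, of the opposite sign.

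**Figure D5:**
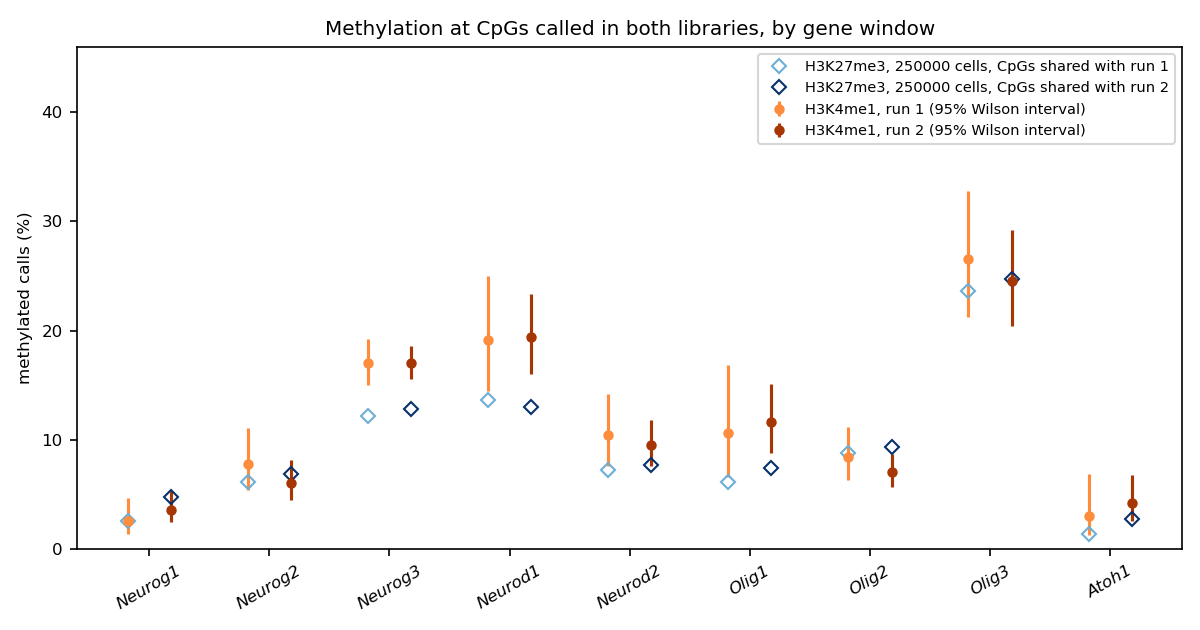
Methylated share of calls (y, percent) at CpGs called in both libraries, per gene window: filled circles for H3K4me1 run 1 and run 2 with 95% Wilson intervals, open diamonds for H3K27me3 at the same CpGs. Diamonds lie below the circle in both runs at Neurog3, Neurod1, Neurod2, Olig1 and Atoh1, and below its interval in both runs at Neurog3, Neurod1 and Olig1; Olig3 is highest for both marks, between 23.7 and 26.6%.

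H3K9me3 peaks were not found over the family. No window had a peak in run 1, run 2 or the control (0 of 9 in each), where 14.7%, 20.3% and 14.2% of all windows had one. Calls per CpG ran from 0.0553 to 0.701 of the genome mean in the 2 runs. The median of the members was 0.362 in run 1 and 0.211 in run 2, against 0.372 and 0.328 over all genes. Windows held 4 to 27 calls in run 1 and 11 to 64 in run 2, so methylation on H3K9me3 fragments could be given with 20 calls in both runs for 3 genes. Means of the runs were 12.7% at Neurog2, 27.7% at Olig2 and 45.1% at Atoh1, with an SD between runs of up to 9.97 points.

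Partner and pathway genes were placed beside the members. Of 35 other tissue-restricted bHLH genes, 29 windows carried a 250000-cell H3K27me3 peak, 16 were covered to at least 50%, and 5 had a 4000-cell peak, with a median coverage of 46.2%. Among those covered in full were Hand2, a heart and limb factor, and Ptf1a, a pancreas and cerebellum factor. Bhlha15, Msc, Msgn1, Neurod4, Tcf15 and Tcf23 had none. A covered share also depends on gene length. Of the 3 E proteins, the shared dimer partners, 2 had a peak in the window and 1 had it over the start. Tcf12 had 9212 bp under peaks, which was 3.20% of its long window, Tcf3 had 869 bp (1.96%), and Tcf4 had none. Of 13 Id, Hes and Hey genes, the inhibitors of bHLH activity, 11 had a peak and 8 were covered to at least 50%, with Hes3 highest at 86.1% and Hes1 and Id1 at 0. Of 9 Notch ligands and receptors, which act upstream of the Hes genes, 8 had a peak and 3 were covered to at least 50%, with the ligand Dll1 at 97.6% and the receptor Notch1 at 0.

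The genes most like the median member profile were sought by Euclidean distance over the share of the window under peaks in the 11 per-library lists. Only protein-coding genes outside the gene and marker lists above that shared no base with a member window were searched. The listed genes could therefore not appear. The nearest of the searched genes were Rtn4rl2 (distance 12.2 percentage points), Shroom1 (12.4), Ier5 (13.6), Cyp26a1 (13.7) and Gadd45g (14.0). The members themselves lay from 16.4 (Atoh1) to 116 (Neurog3) from their own median. Neurod1 (96.8) and Olig3 (61.3) followed Neurog3.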

How the data were processed

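The deposited table gave, per CpG and bisulfite library, counts of methylated and of all calls without normalization, and each sample had a peak list of positions without scores, called per sample. Per the submitters' processing notes, the build was mm10 and the tools were cutadapt 1.12, Bismark 0.23.0, Bowtie2 2.3.0, HOMER 4.10.3 and bedtools 2.29.2. Their settings and the treatment of duplicate reads are not given in the sources used here. All count columns were used. All 152 CpGs of the printed promoters were found at positions of the CpG table.

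Levels were computed in Python 3.11.15 with numpy 2.4.6 and pandas 2.3.3 as methylated over all calls in percent, for regions with at least 20 calls, with Wilson 95% intervals. Calls on 1 fragment and PCR copies are not independent, so the intervals cover counting error only. A peak counted when it shared 1 bp with a window. A difference of 20 points between marks counted as called. The background is all protein-coding genes on chromosomes 1 to 19 and X, placed with RefSeq (GRCm38.p6). The scripts were tested on simulated data. Members, gene lists and rules were chosen with earlier results of these data known. All 9 members were named. Of each other list the genes with the highest and lowest H3K27me3 coverage were named, and lists of up to 5 genes in full. The 5 nearest genes by peak profile outside all lists were named too. An item that this rule would name is not reported here. Alternatives changed the flank, the coverage needed, the weighting of CpGs, the peak list, the minimum calls and the runs used.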

Additional observations from a re-analysis of the deposited data

Results flagged for a closer look

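At 3 genes the bisulfite libraries differed from the control without bisulfite in opposite directions for the 2 marks, counted as bases of the window under peaks. At Neurog3 the 250000-cell H3K27me3 peaks covered 85 bp less than the control (a difference of -85 bp), whereas H3K4me1 covered 1443 bp more in run 1 and 540 bp more in run 2. At Olig3 the differences were -54 bp for H3K27me3 and 724 and 12 bp for H3K4me1. At Olig1 H3K27me3 covered 3236 bp more than its control and H3K4me1 differed by -182 and -60 bp. The H3K27me3 differences at Neurog3 and Olig3 were small beside their peaks of 10286 and 13725 bp. The share of all gene windows with opposite directions was not computed. These differences between marks were not tested, since each mark had 1 library and 1 control.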

How the results depend on the processing

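No paired analysis was possible because the results come from no test and the runs of a mark were counted as 1 library. Depth limits the 4000-cell library most, in which a window held 36 to 330 calls, and H3K9me3, in which it held 4 to 64. Of 114 alternatives to the main results, 70 stayed within the limits set for each, 1 changed sign, and the cause was not tested for those that moved.

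Counts of members with an H3K27me3 peak were 9 under every alternative from 20000, 100000 and 250000 cells. From 4000 cells the count fell from 4 to 1 when peaks had to be 2000 bp wide. The H3K4me1 count fell from 7 to 2 when peaks had to cover 10% of the window, and 1 member reached an H3K9me3 peak in both runs with a flank of 20 kb. Leaving out 1 H3K4me1 run gave 7 and 9.

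Recovery from 4000, 20000 and 100000 cells became 8.82, 90.9 and 98.2% with a flank of 5 kb, and 5.26, 65.4 and 89.4% with 20 kb. As a share of peaks sharing 1 bp it was 40, 90 and 90%, and as a share of peaks covered to 50% it was 0, 80 and 90%. With the control as reference it was 80.002% from 20000 and 95.7% from 100000 cells.

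The median window level moved to 14.8% (100000 cells), 14.0% (250000) and 8.55% (H3K4me1) with a flank of 5 kb, and to 16.7, 17.1 and 11.5% with 20 kb. As a mean of single CpG levels it was 20.2, 26.7 and 27.7% from 20000, 100000 and 250000 cells and 11.2% for H3K4me1. With at least 5 calls per CpG it was 9.12, 15.3 and 7.09% for 20000 cells, 100000 cells and H3K4me1, the last over the 6 members that could be measured; from 4000 cells it gave no value, for windows or promoters. The H3K4me1 median was 9.51 and 10.4% with 1 run each.

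The median promoter level within 500 bp was 0, 0.921, 1.80 and 1.64% in order of cell number, and within 2000 bp 7.77, 8.002 and 6.91% from 20000 cells up. With at least 5 calls per CpG it was 1.35% from 20000 cells, and for H3K4me1 only Neurog3 could be measured, at 7.88% against 7.81% with all its CpGs. With 1 H3K4me1 run each it was 3.83 and 1.32%. The median gap between outside and inside peaks was 43.4 points as a mean of single CpG levels, and the genes with 20 calls on both sides numbered 1 and 7 with flanks of 5 and 20 kb.

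The median shared-CpG difference was 6.35 points over all CpGs, where Neurog2 (4.55), Neurod2 (6.02), Olig1 (7.97), Olig3 (6.35) and Atoh1 (7.03) also changed sign. With 1 H3K4me1 run it was -1.43 and -2.93 points, and Neurog2 was at 0.85 and -1.69 and Olig3 at 0.16 and -2.93. With at least 5 calls in both libraries 6 members could be measured, and Neurog1 (-0.063), Olig2 (-3.25) and Olig3 (6.83) changed sign.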

Other observations

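The family's calls in the 4000-cell library were uneven near the starts. Scaled from its share of the 250000-cell library, Olig2 would have held 55.7 calls within 1 kb of its start, and it held 2. Olig1 held 10 against 72.3 and Neurod1 7 against 21.8. Neurog1 held 153 against 149, Neurod2 48 against 39.5, Atoh1 74 against 71.0 and Olig3 52 against 47.6. Over whole windows the ratio of found to scaled calls ran from 0.271 at Olig1 and 0.466 at Olig2 to 1.117 at Atoh1 and 1.119 at Olig3.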
